A study of Mus musculus with 35 samples.

Results

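The genes described here are 10 genes of the NRF2 antioxidant response, chosen by symbol: Nfe2l2, Gsta4, Slc7a11, Gpx2, Hmox1, Srxn1, Gclc, Gclm, Txnrd1 and Nqo1. Each matched 1 of the 36106 gene rows of the count table. Skin RNA was sequenced from C57BL/6J animals, all females of this inbred strain at an age of 10 weeks, for which no allele or transgene is stated. Of the 35 libraries, 16 were labelled radiated, 16 control and 3 sham. Radiated skin came from the left flank after 25 Gy, given over 420 seconds at 3.6 Gy per minute and followed by shaving, with 4 mice at each of weeks 1, 2, 3 and 4. Control skin was sampled in the same weeks, 4 libraries each. The design text counts 19 mice in a sham group and 4 radiated groups, which leaves no separate control mice. A control library and the radiated library with the same week and number were therefore treated as skin of 1 mouse that had received the 25 Gy to its flank. The body site of the control skin, and hence the dose there, is not stated. Sham mice were not radiated, and no week is given for them. All 3 sham libraries stood in every comparison with sham skin, so those comparisons are not independent of each other.

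NRF2, the product of Nfe2l2, is a transcription factor that the adaptor KEAP1 normally hands over for degradation. Oxidants and electrophiles modify KEAP1, NRF2 then accumulates, pairs with small MAF proteins and binds antioxidant response elements near its target genes. In skin the pathway is best known from keratinocytes, where it guards against ultraviolet light, chemicals and wound oxidants. Its control is largely at the protein level, which RNA counts do not measure. The targets fall into groups: glutathione synthesis (Slc7a11, which imports cystine, and Gclc and Gclm, the subunits of glutamate-cysteine ligase), glutathione use (Gpx2, a peroxidase, and Gsta4, a transferase that conjugates the lipid peroxidation product 4-hydroxynonenal), the thioredoxin system (Txnrd1, thioredoxin reductase, and Srxn1, which repairs overoxidised peroxiredoxins), heme breakdown (Hmox1) and quinone reduction (Nqo1).

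The letters of the antioxidant response element core were searched near the members' starts. RefSeq promoter windows on GRCm38.p6, from 250 bases before to 50 bases after a transcription start, were listed for 7 of the 10 members, and 4 of these held the core letters TGACNNNGC on either strand. The matches are shown in capitals with 10 flanking bases, read along the gene's own strand, because these letters are the textbook core of the element through which NRF2 acts:
Nfe2l2: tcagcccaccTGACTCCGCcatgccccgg
Srxn1: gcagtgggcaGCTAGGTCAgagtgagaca
Gclm: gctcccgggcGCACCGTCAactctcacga
Txnrd1: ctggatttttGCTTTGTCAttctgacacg
The Nfe2l2 match began 240 bases upstream of the start, at chr2:75704885-75704913 with its flanks. Those of Gclm and Txnrd1 began 134 and 92 bases upstream, at chr3:122245413-122245441 and chr10:82859104-82859132, the latter at 1 of 3 listed Txnrd1 starts. The Srxn1 match lay 28 bases downstream of the start, at chr2:152105542-152105570. Of all 32851 windows, 12.4% held these letters, so a match is a description and not a site. The windows of Slc7a11, Nqo1 and Gpx2 held none, which says only that the letters are not in that stretch.

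Other elements were searched in the same windows. The palindromic AP-1 letters TGANTCA were found in the Srxn1 window alone among the members and in 7.81% of all windows. The Slc7a11 window was the only member window with TGATGNAA, the letters of an element bound by ATF4, a factor of the amino acid stress response, and it held 2 copies on opposite strands. By the letters searched, no match of one motif overlapped a match of another. With the bases that follow it, the Srxn1 match 45 bases upstream reads TGAGTCAgc. It differs from the searched core letters TGACNNNGC only in TGAG for TGAC, and that form was not searched. These windows are shown because Srxn1 and Slc7a11 are among the members with the clearest differences below:
Srxn1, 102 bases upstream: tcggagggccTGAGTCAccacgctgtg
Srxn1, 45 bases upstream: aaattcacccTGAGTCAgcggccgggc
Slc7a11, 66 bases upstream: ctcatgtggcTGATGCAAacctggagaa
Slc7a11, 47 bases upstream: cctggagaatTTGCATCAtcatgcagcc
With their flanks, the Srxn1 windows span chr2:152105412-152105438 and chr2:152105469-152105495, and the Slc7a11 windows chr3:50443662-50443689 and chr3:50443643-50443670. The ATF4 letters were present in 3.97% of all windows.

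Library totals ran from 17362853 to 28487885 estimated counts, and the lowest value of any member in any library was 14 counts, for Gpx2. Levels are given as CPM, counts per 1000000 after scaling of the libraries, with libraries in the order of their replicate numbers. Epidermal keratinocyte markers (the keratins Krt5, Krt14, Krt1 and Krt10, the transcription factor gene Trp63 and the desmosomal Dsp) summed to at least 7210 CPM in every library, so the skin label holds in each. Differences were tested with edgeR, week by week, and a gene with a Benjamini-Hochberg adjusted p under 0.05 over all tested genes is said to have changed. All 10 members passed the low-count filter in every comparison. Estimated counts of Gclm and Slc7a11 were not whole in all 35 libraries, those of Gpx2 in 33 and those of Srxn1 in 15, and these are less certain, since kallisto divides by estimate the reads that match transcripts of several genes. The other 6 members had whole counts throughout.

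Radiated skin differed from control skin of the same week in 4 of the 10 genes in week 3 and in 7 of the 10 in week 4. In week 3, Gsta4, Slc7a11, Gpx2 and Hmox1 rose. In week 4 those 4 and Srxn1 and Nfe2l2 rose, while Gclc fell. Nqo1, Gclm and Txnrd1 passed in neither week. Over all tested genes, 13.6% were called higher and 13.6% lower in week 3, and 24.2% higher and 24.2% lower in week 4. Against these shares, 4 and 6 members rose and 0 and 1 fell. The median log2 fold change of the 10 members was 0.38 in week 3 and 1.19 in week 4, beside 0.08 and 0.02 over all tested genes. The members were chosen with earlier results of these data known, so these values describe the list and do not test it. In week 1, 0 members passed and 0% of all genes did, while 3 members and 2477 of all genes (14.1%) fell under 0.05 before adjustment in edgeR. DESeq2 called 0 members and 416 genes (2.37%) there. In week 2, 0 members passed and 0.00577% of all genes did, with 3 members and 2388 genes (13.8%) at an unadjusted p under 0.05. DESeq2 then called 734 genes (4.23%), Hmox1 and Srxn1 among them.

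**Figure D1:**
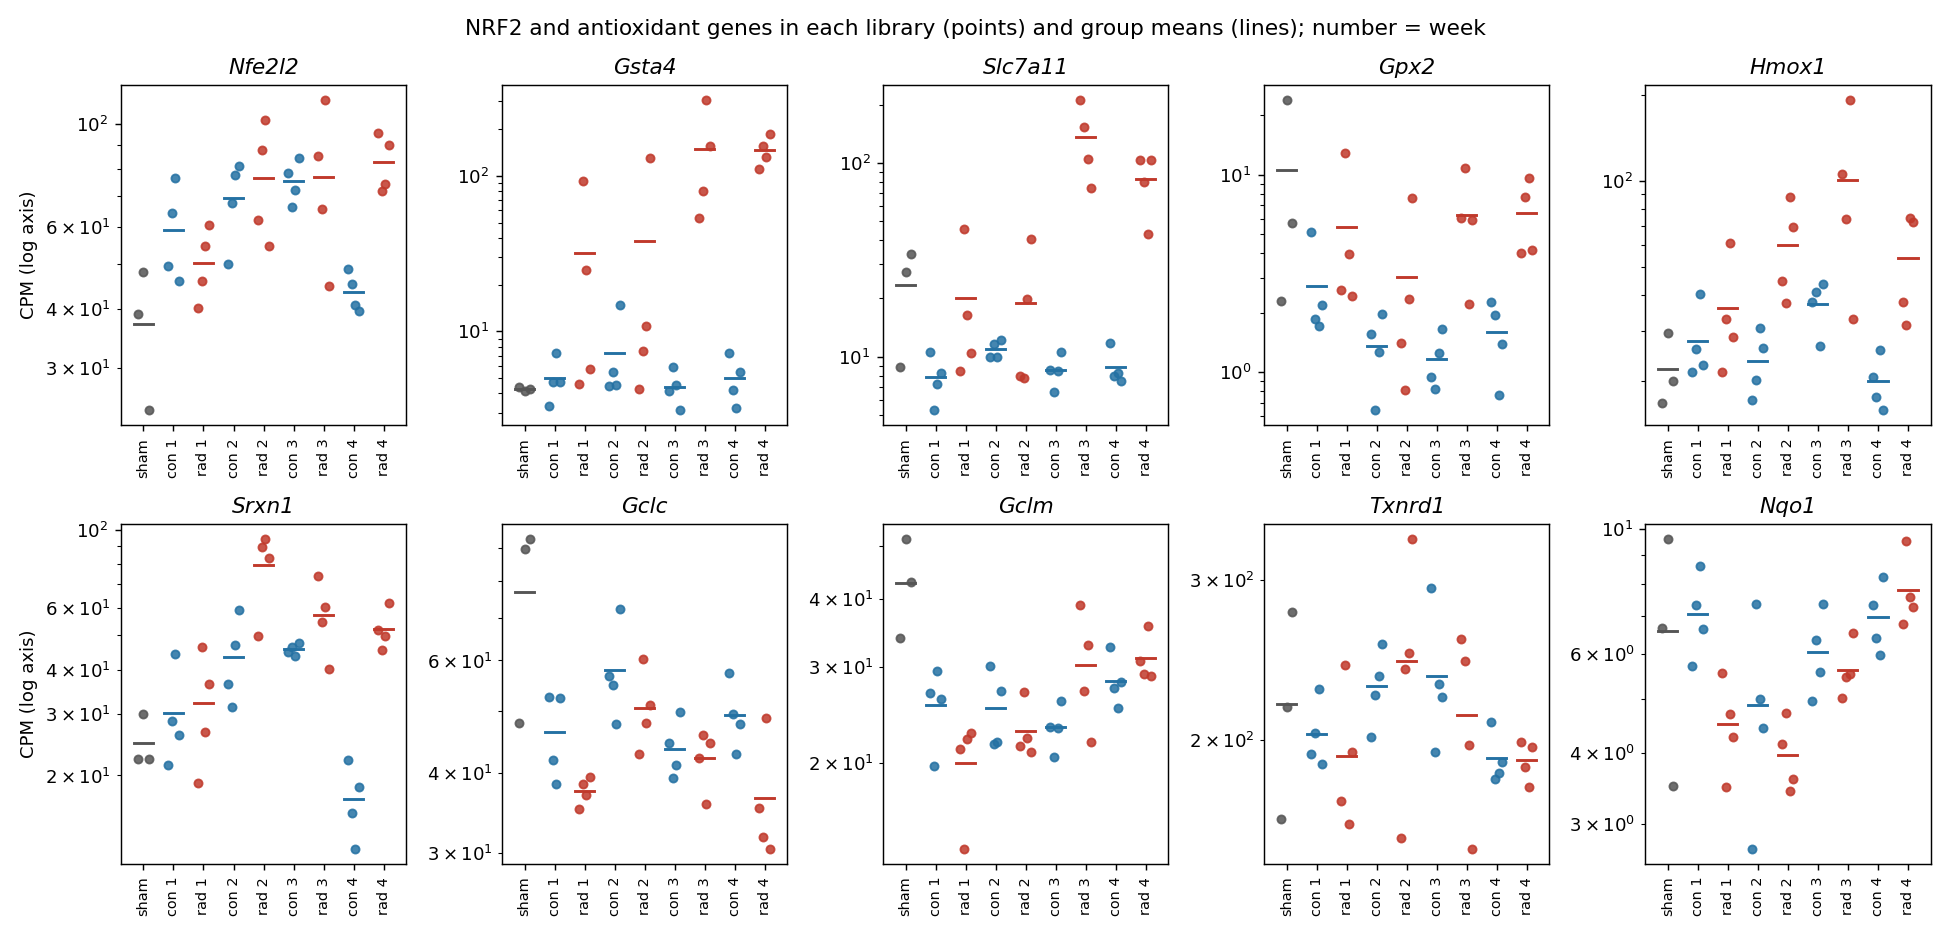
Levels of the 10 genes (CPM, log axis) in each of the 35 libraries, by group along the horizontal axis (con, control; rad, radiated; number, week), with the group mean as a line. Gsta4 in radiated skin of weeks 3 and 4 lies between 53.7 and 304 CPM, above every control and sham library.

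**Figure D2:**
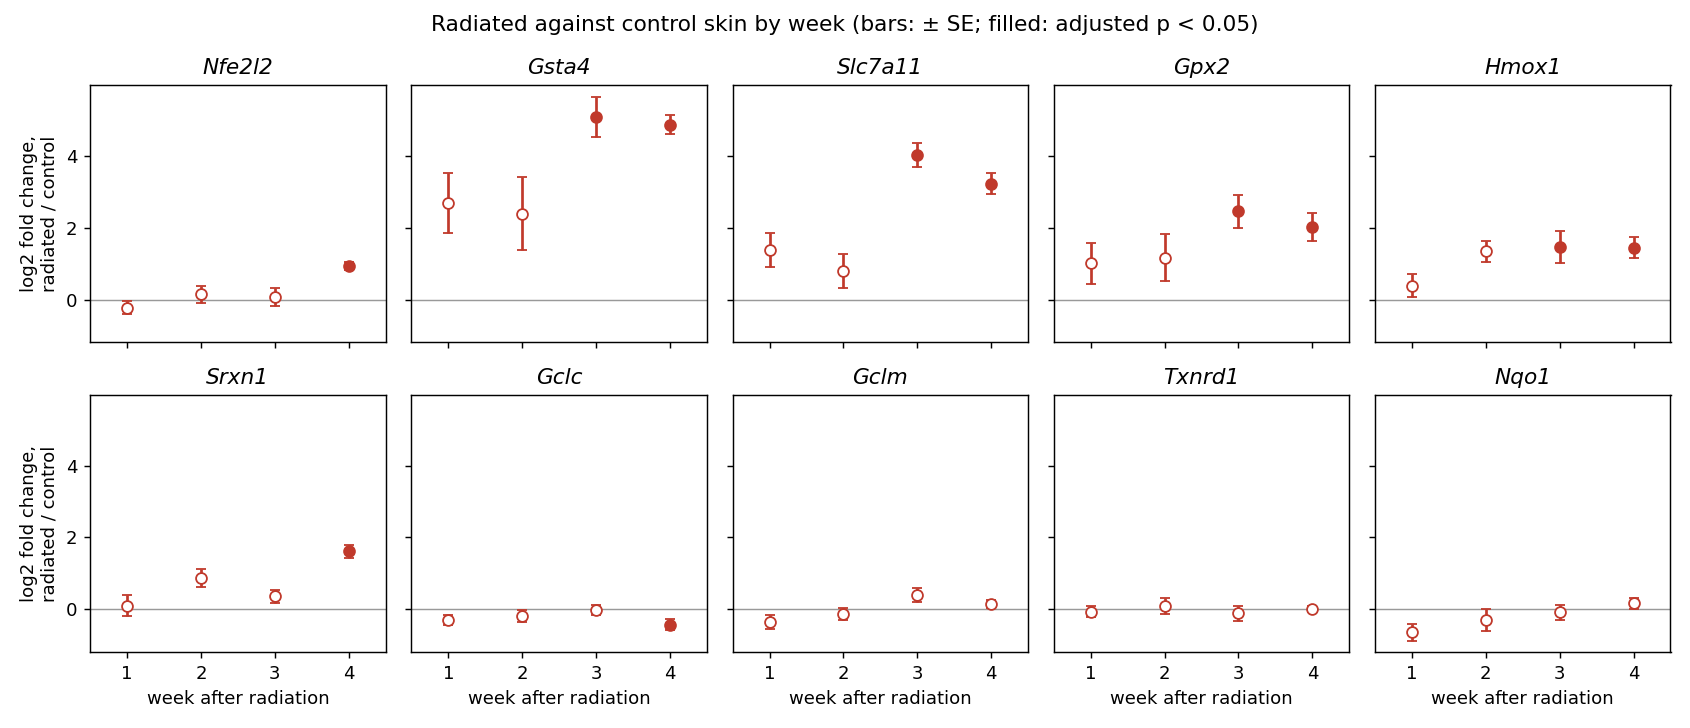
Log2 fold change of radiated over control skin for each gene and week, with bars of 1 SE; filled points have an adjusted p under 0.05. All 4 points of Gsta4 lie above 2, whereas those of Txnrd1 run from -0.11 to 0.09.

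Gsta4 (chr9:78182774-78209349, GRCm38) showed the widest range of the members. In radiated skin it read 53.7, 79.6, 304 and 155 CPM in week 3 and 110.3, 154, 132 and 186 CPM in week 4. The control libraries read 4.14, 5.93, 4.51 and 3.14 CPM in week 3 and 7.27, 4.20, 3.21 and 5.47 CPM in week 4. No radiated library of these weeks overlapped with a control library, and all 4 mice showed the higher value in radiated skin in each week. The log2 fold change was 5.08 (edgeR adjusted p 0.00101, SE 0.56) in week 3 and 4.87 (adjusted p 2.51e-06, SE 0.27) in week 4, or 33.9-fold and 29.2-fold. Sham skin was close to control skin, at 4.42, 4.12 and 4.28 CPM.

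Single radiated libraries were already high in Gsta4 in the first 2 weeks. The week 1 libraries read 4.57, 92.7, 24.9 and 5.72 CPM and the week 2 libraries 4.29, 7.45, 10.9 and 129 CPM. Replicates 2 and 3 of week 1 and replicate 4 of week 2 thus stood apart. The others lay within the control range of both weeks together, 3.30 to 14.8 CPM, where the second highest control library read 7.32 CPM. The group differences of 2.68 (edgeR adjusted p 0.244, SE 0.83) and 2.39 (adjusted p 0.338, SE 1.02) did not pass. Without replicate 2 of radiated week 1 the first was 1.22, and without replicate 4 of radiated week 2 the second was 0.03.

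The libraries with the highest Gsta4 were those with the highest wound keratinocyte markers (Krt6a, Krt6b, Krt16, Sprr1b and Sprr2d). Their summed level was 13543 and 4222.8 CPM in replicates 2 and 3 of radiated week 1 and 12814 CPM in replicate 4 of radiated week 2. It was between 113 and 845 CPM in the other 5 radiated libraries of weeks 1 and 2, and between 4299.5 and 15271 CPM in radiated skin of weeks 3 and 4. Control and sham libraries lay between 152 and 1166 CPM. Sprr2d was at 0 counts in 14 of the 35 libraries. Whether the markers' cells account for the Gsta4 level was not tested. In bulk skin, fewer cells of a type and less RNA per cell cannot be told apart, and this holds for every gene below.

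**Figure D3:**
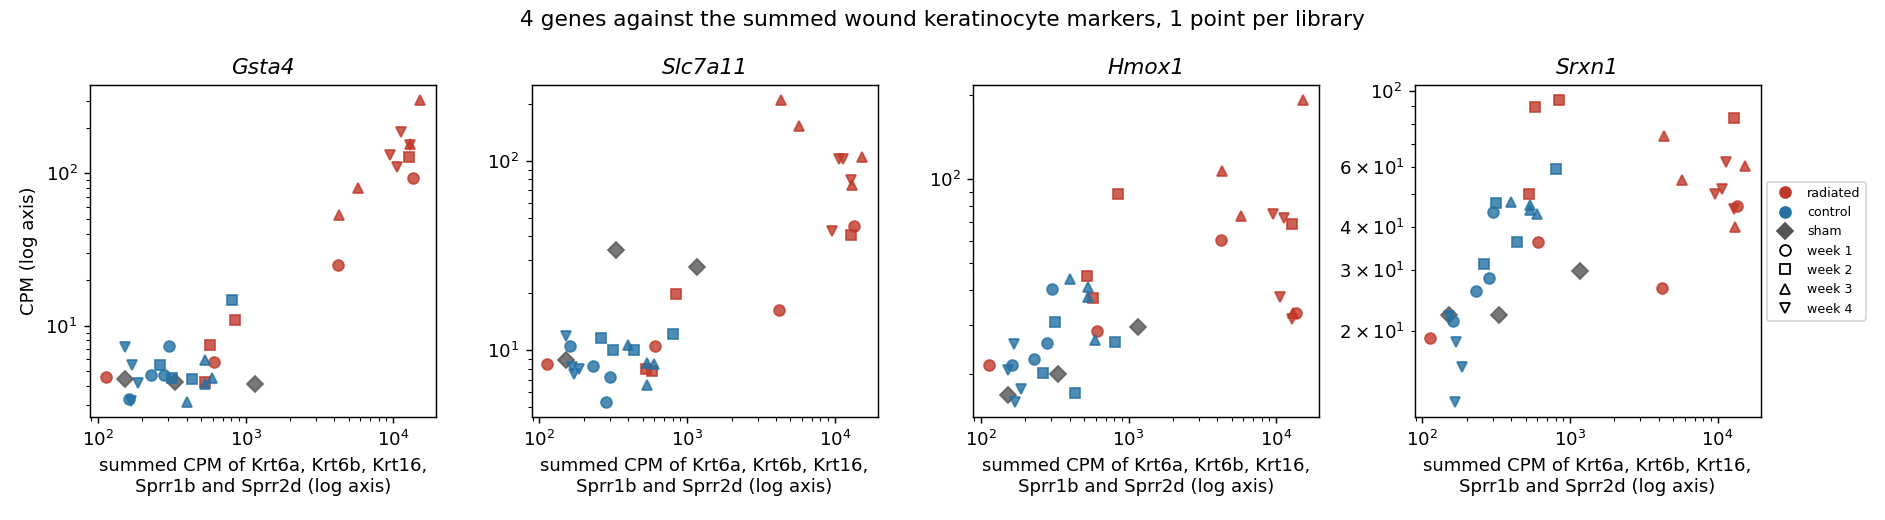
Levels of Gsta4, Slc7a11, Hmox1 and Srxn1 (CPM, log axis) against the summed CPM of 5 wound keratinocyte markers (log axis), 1 point per library, with color for the kind of skin and shape for the week. Libraries with a marker sum of 4222.8 CPM or more are all radiated; Gsta4 is at least 24.9 CPM in each of them and at most 14.8 CPM in the rest, while Srxn1 also reaches 93.9 CPM at a low sum.

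Slc7a11, the cystine importer (chr3:49892526-50443614), followed a similar course. Radiated skin read 210.4, 154, 105 and 74.7 CPM in week 3 and 103, 79.5, 43.0 and 103 CPM in week 4. Control skin read 8.59, 6.59, 8.41 and 10.6 CPM and 11.8, 7.92, 8.21 and 7.51 CPM. The groups did not overlap in either week. The log2 fold change was 4.03 (edgeR adjusted p 0.000641, SE 0.34) in week 3 and 3.23 (adjusted p 1.95e-05, SE 0.29) in week 4, which is 16.3-fold and 9.36-fold. In week 1, replicate 2 of radiated skin was high (8.46, 45.4, 16.4 and 10.5 CPM), and in week 2 replicate 4 was (7.91, 7.80, 19.7 and 40.5 CPM). Both are libraries with high Gsta4 and wound markers. The order differed in week 3, where Slc7a11 was highest in replicate 1, which had the lowest Gsta4 and wound marker sum of that group. The differences of weeks 1 and 2, 1.38 and 0.80, did not pass (adjusted p 0.271 and 0.497 in edgeR). They were 0.59 and 0.10 without replicate 2 of radiated week 1 and replicate 4 of radiated week 2.

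Gpx2, a glutathione peroxidase of epithelia (chr12:76792333-76795554), had the lowest counts of the members and rose in the same weeks. Radiated skin read 6.07, 10.8, 2.21 and 5.93 CPM in week 3 and 4.01, 7.76, 9.67 and 4.15 CPM in week 4. Control skin read 0.944, 0.818, 1.25 and 1.66 CPM and then 2.28, 1.95, 0.769 and 1.39 CPM. The groups were apart in both weeks, with a log2 fold change of 2.45 (edgeR adjusted p 0.00573, SE 0.47) and 2.02 (adjusted p 0.00214, SE 0.39). Sham skin spread more widely than any of these groups, at 2.30, 23.8 and 5.72 CPM. In weeks 1 and 2 the differences were 1.01 and 1.17 and did not pass (adjusted p 0.43 and 0.472 in edgeR). They were 0.15 and 0.16 without replicate 2 of radiated week 1 and replicate 4 of radiated week 2.

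Hmox1 encodes heme oxygenase 1 (chr8:75093621-75100589), which splits heme and is also a macrophage gene. Radiated skin of week 2 read 44.8, 37.5, 88.1 and 69.0 CPM, and control skin 17.2, 20.1, 30.6 and 26.1 CPM. These groups did not overlap, but the log2 fold change of 1.35 (SE 0.29) had an adjusted p of 0.135 in edgeR. With the mouse as a block it was 1.30 and passed (adjusted p 0.00799 in edgeR), in a fit that called 3.7% of all genes. In week 3 radiated skin read 107, 73.8, 192 and 33.1 CPM against 37.7, 41.1, 26.5 and 43.7 CPM, so that replicate 4 lay within the control range. The difference of 1.48 (edgeR adjusted p 0.0353, SE 0.44) had an adjusted p of 0.126 with the mouse as a block, where 21.1% of genes were called. It also lost the call, at adjusted p up to 0.094 in edgeR, without any single control library of that week or without replicate 1 or 3 of the radiated libraries. In week 4 radiated skin read 37.9, 31.5, 74.7 and 72.3 CPM against 20.7, 17.7, 25.6 and 15.9 CPM, without overlap. The difference was 1.45 (edgeR adjusted p 0.00254, SE 0.29) and passed in every leave-one-out fit.

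Srxn1, sulfiredoxin (chr2:152105516-152111376), had its highest mean of all groups in radiated skin of week 2, at 79.1 CPM, and its lowest in control skin of week 4, at 17.2 CPM. Radiated libraries read 49.95, 89.4, 93.9 and 83.1 CPM in week 2, 73.8, 54.8, 60.3 and 40.2 CPM in week 3 and 51.7, 45.3, 49.9 and 62.0 CPM in week 4. Control libraries read 36.3, 31.4, 46.9 and 59.0 CPM, then 44.9, 46.4, 43.8 and 47.5 CPM, then 22.1, 15.7, 12.4 and 18.6 CPM. The groups were apart only in week 4, where control skin was at its lowest and radiated skin was not at its highest. The log2 fold change was 0.86 (edgeR adjusted p 0.181, SE 0.25) in week 2 and 0.36 (adjusted p 0.171, SE 0.18) in week 3. It was 1.61 (edgeR adjusted p 7.05e-05, SE 0.18) in week 4. In week 3 the difference passed without replicate 4 of the radiated libraries (0.50, adjusted p 0.0308 in edgeR) and with scaling to total counts (0.59, adjusted p 0.031).

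Nfe2l2, the gene of NRF2 itself (chr2:75675513-75704641), differed in week 4 alone. Radiated skin then read 95.6, 71.6, 74.3 and 90.2 CPM and control skin 48.7, 45.4, 40.8 and 39.7 CPM, without overlap. The difference was 0.94 (edgeR adjusted p 0.000156, SE 0.12), or 1.91-fold. In week 3 the libraries read 85.4, 65.8, 112 and 44.8 CPM in radiated skin and 78.5, 66.2, 72.1 and 84.4 CPM in control skin, a difference of 0.06 (adjusted p 0.87 in edgeR). Mean levels in radiated skin of weeks 2, 3 and 4 were 76.7, 77.0 and 82.9 CPM. In control skin they were 69.1, 75.3 and 43.7 CPM. The radiated level of week 4 was thus within the spread of the weeks before, and the control level was lower than in weeks 2 and 3.

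Neither subunit of glutamate-cysteine ligase rose with Slc7a11. Gclc, the catalytic subunit (chr9:77754535-77794485), read 35.3, 31.8, 48.8 and 30.5 CPM in radiated and 57.3, 49.5, 42.9 and 47.8 CPM in control skin of week 4. Replicate 3 of the radiated libraries lay within the control range. The difference of -0.42 (SE 0.16) only just passed (adjusted p 0.0497 in edgeR). It did not pass with the mouse as a block (adjusted p 0.0771, in a fit that called 42.7% of genes), with total-count scaling (0.115), without the low-count filter (0.0503) or in 1 fit of all samples (0.0532). It was also lost, at adjusted p up to 0.144 in edgeR, without replicate 1, 2 or 4 of either the radiated or the control libraries. In week 3 the Gclc difference was -0.02 (adjusted p 0.918 in edgeR). Gclm, the modifier subunit (chr3:122245557-122270732), differed by 0.41 (edgeR adjusted p 0.144, SE 0.19) in week 3 and 0.15 (adjusted p 0.309, SE 0.11) in week 4. The week 3 value passed with total-count scaling (0.63, adjusted p 0.0311 in edgeR) and without replicate 4 of the radiated libraries (0.54, adjusted p 0.0441).

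Txnrd1 and Nqo1 passed in no week. Txnrd1, the cytosolic thioredoxin reductase (chr10:82833951-82897712), ranged from 152 to 333 CPM over all libraries, a span of 2.20-fold against 96.8-fold for Gsta4 and 39.5-fold for Slc7a11. Its radiated libraries of week 4 read 199, 186, 177 and 197 CPM and its control libraries 209, 181, 184 and 189 CPM. The log2 fold change was -0.11 (edgeR adjusted p 0.698, SE 0.20) in week 3 and 0.00 (adjusted p 0.985, SE 0.08) in week 4. Nqo1, the quinone reductase that is often read as the marker of NRF2 activity (chr8:107388225-107403206), read 6.79, 9.50, 7.58 and 7.27 CPM in radiated skin of week 4 and 7.32, 6.42, 5.98 and 8.20 CPM in control skin. Its log2 fold change was -0.08 (edgeR adjusted p 0.804, SE 0.20) in week 3 and 0.16 (adjusted p 0.428, SE 0.16) in week 4. In week 1 Nqo1 was lower in radiated skin of all 4 mice, at 5.55, 3.49, 4.70 and 4.28 CPM against 5.72, 7.32, 8.61 and 6.64 CPM. That difference of -0.64 (SE 0.23) did not pass (adjusted p 0.274 in edgeR), nor did any other member in that week. Gclc and Gclm were also lower in radiated skin of all 4 mice in week 1, though their groups overlapped. The week 1 differences of Gclc, Gclm, Hmox1, Srxn1, Txnrd1 and Nfe2l2 lay between -0.35 and 0.39, and the week 2 differences of Nqo1, Gclc, Gclm, Txnrd1 and Nfe2l2 between -0.30 and 0.15.

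Scaling mattered in week 3. With libraries scaled to their total counts, the median over all genes was 0.236 higher on the log2 scale and the split of called genes moved from 2408 higher and 2397 lower to 4054 of 5324 higher. The small negative week 3 differences of Nqo1, Gclc and Txnrd1 turned positive under that scaling (0.17, 0.22 and 0.12), and none of the 3 passed. Gsta4, Slc7a11, Gpx2 and Hmox1 rose under either scaling.

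Other cell markers moved with the same groups, and their part in the members' differences was not tested. All 5 wound keratinocyte markers rose in weeks 3 and 4, from 152 to 594 CPM summed in control skin to 4299.5 to 15271 CPM in radiated skin. All 6 neutrophil markers (S100a8, S100a9, Cxcr2, Csf3r, Retnlg and Mmp9) rose in both weeks, to sums of 117 to 844.5 CPM in radiated skin against 11.8 to 19.4 CPM in control skin. S100a8 was at 0 counts in 3 libraries and Retnlg in 9. Of 7 macrophage markers, 4 rose in week 3, when the sums overlapped (1149.6 to 2857.6 against 458 to 1190.0 CPM), and 7 in week 4 (1337 to 2017 against 243 to 421 CPM). Of the 6 epidermal keratinocyte markers 1 rose and 1 fell in week 3. In week 4, 1 rose and 4 fell, and their sums of 14739 to 20926 CPM in radiated skin lay below those of 25412 to 28709 CPM in control skin. Of 6 fibroblast markers, 1 rose and 1 fell in week 3 and 5 rose in week 4. Their sums overlapped in week 3, at 11531 to 20402 CPM in radiated and 1533 to 11722 CPM in control skin. In week 4 they were 26933 to 45950 against 1740 to 4013 CPM. In week 4 all 4 endothelial markers rose (sums of 372 to 484 against 165 to 281 CPM), as did 4 of 5 proliferation markers (473 to 590 against 180 to 455 CPM), 4 of 5 melanocyte markers and 5 of 8 hair follicle markers. Of 5 T cell markers 2 rose and 1 fell then (41.0 to 54.6 against 24.2 to 28.3 CPM). Of 6 skeletal muscle markers, 5 fell in each week. Their sums were 2524 to 7507.5 CPM in radiated and 14861 to 30345 CPM in control skin of week 3. In week 4 they overlapped, at 880 to 2078 and 1157.5 to 17670 CPM. The 4 mitochondrial transcripts counted as a sign of RNA quality fell in both, from sums of 8967 to 18769 CPM in control skin to 3123 to 4631 CPM in radiated skin.

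Whether the radiated-control difference changed over the 4 weeks was tested in 1 model of the 32 libraries. It did for Slc7a11 (adjusted p 0.00215 in edgeR), Srxn1 (0.0147) and Nfe2l2 (0.04), 3 of 10 members, where 15.6% of all genes passed. For Gsta4 the adjusted p was 0.172 in edgeR, and 0.00868 with the mouse as a block, where 15.8% of all genes passed, and 0.0246 without the libraries numbered 4. The call of Slc7a11 held when the libraries of any 1 replicate number were left out. That of Nfe2l2 was lost without replicates 1, 2 or 3 (adjusted p 0.162, 0.195 and 0.0936 in edgeR), and that of Srxn1 without replicates 2, 3 or 4 (0.0504, 0.207 and 0.0694). Within radiated skin alone, Slc7a11, Nqo1, Srxn1 and Gclm differed over the weeks (adjusted p 0.00319, 0.00504, 0.0134 and 0.0436 in edgeR), where 23.3% of all genes did. Radiated Nqo1 rose from a mean of 3.98 CPM (SD 0.58, n = 4) in week 2 to 7.78 CPM (SD 1.19, n = 4) in week 4. Within control skin, Srxn1, Nfe2l2 and Hmox1 differed over the weeks (adjusted p 0.00202, 0.0105 and 0.0324 in edgeR), where 23.9% of all genes did. Their control means were 17.2, 43.7 and 20.0 CPM in week 4, after 45.6, 75.3 and 37.3 CPM in week 3. Sham means of these genes were 24.8, 37.2 and 22.1 CPM. With the libraries of 1 replicate number left out, Srxn1 passed in control skin in all 4 fits. Hmox1 lost the call without replicates 1, 2 or 4 (adjusted p 0.0724, 0.233 and 0.201 in edgeR) and Nfe2l2 without 2, 3 or 4 (0.0718, 0.0543 and 0.084). In radiated skin Slc7a11 passed in all 4, Nqo1 and Srxn1 lost the call without replicate 3 (0.0569 and 0.165), and Gclm lost it in every such fit (0.0551 to 0.208). Gsta4 passed in radiated skin without replicate 4 (0.0277). Without the low-count filter the change of the difference did not pass for Nfe2l2 (adjusted p 0.0501 in edgeR), nor Gclm in radiated skin (0.0661), and with total-count scaling Hmox1 did not pass in control skin (0.0509).

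Gsta4, Slc7a11, Hmox1, Srxn1 and Nfe2l2 were also higher in radiated than in sham skin. In week 4, 5 members were higher than in sham skin, where 15.2% of all genes were: Gsta4 by 5.13 (adjusted p 3.73e-05 in edgeR), Srxn1 by 1.12 (0.00228), Nfe2l2 by 1.20 (0.00689), Slc7a11 by 1.86 (0.0192) and Hmox1 by 1.34 (0.0246). Gclc was lower by 1.02 on the log2 scale (log2 fold change -1.02, adjusted p 0.0186 in edgeR), where 11.5% of genes were lower. Gpx2, higher than in control skin, did not pass against sham skin: its log2 fold change there was -0.69 (edgeR adjusted p 0.503, SE 0.69), and 0.75 (0.336) without sham replicate 2, the library at 23.8 CPM. In week 3 the corresponding Gpx2 values were -0.73 (edgeR adjusted p 0.545) and 0.72 (0.53). Gclm, Txnrd1 and Nqo1 did not pass. All wound keratinocyte, neutrophil, macrophage and endothelial markers were higher than in sham skin in week 4 and all skeletal muscle markers lower. In sham skin the fibroblast markers summed to 4925.5 to 11159 CPM and the mitochondrial transcripts to 5722 to 11243 CPM. In radiated skin the fibroblast sums were 11531 to 20402 CPM in week 3 and 26933 to 45950 CPM in week 4. The mitochondrial sums there were 3123 to 4155 CPM and 3848 to 4631 CPM. The part of these markers was not tested. In week 3, 10.4% of all genes were higher than in sham skin and 7.75% lower. Gsta4 (5.16, adjusted p 0.00477 in edgeR), Srxn1 (1.25, 0.0131), Slc7a11 (2.59, 0.0142) and Hmox1 (2.24, 0.0252) were higher, and Gclc (-0.82, 0.0476) was lower. Gpx2, Gclm, Txnrd1, Nqo1 and Nfe2l2 did not pass.

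In week 2, when no member passed between radiated and control skin, Srxn1 (1.67, adjusted p 0.0109 in edgeR) and Hmox1 (1.44, 0.0439) were above sham skin and Gclm (-0.90, 0.0362) below it. Of all genes, 2.16% were higher and 2.9% lower. Gsta4, Slc7a11, Gpx2, Nfe2l2, Gclc, Txnrd1 and Nqo1 did not pass. In week 1 only Gclm passed, and it was lower (-1.11, adjusted p 0.0471 in edgeR), where 0.543% of genes were higher and 1.21% lower. The other members, Gsta4, Slc7a11, Gpx2, Hmox1, Srxn1, Nfe2l2, Gclc, Txnrd1 and Nqo1, did not pass. The 3 sham libraries were unlike each other. Gsta4 was held within 4.12 to 4.42 CPM, but Slc7a11 read 8.84, 27.4 and 34.0 CPM and Gclc 47.9, 89.8 and 92.9 CPM, in each case lowest in replicate 1. That library also had the lowest sum of hair follicle markers (Krt71, Krt25, Krt27, Krt28, Krt35, Lef1, Msx2 and Hoxc13), 855 CPM against 7937 and 9162 CPM. In the 32 other libraries this sum was at most 2470 CPM. Krt71 was at 0 counts in 4 libraries, Krt28 in 3 and Krt25 in 1. The part of hair follicles in these values was not tested. Without sham replicate 1, Gclc in week 4 was lower by 1.27 on the log2 scale (log2 fold change -1.27, adjusted p 0.0043 in edgeR), and in weeks 1 and 2 it passed as well (-1.30 and -0.86, adjusted p 0.00391 and 0.0459). Without sham replicate 2 or 3 the Gclc calls of weeks 3 and 4 were lost (adjusted p 0.0593 to 0.185), as were the Gclm calls of weeks 1 and 2 (0.131 to 0.195). The Gclc call of week 3 held in 1 of 7 fits with a library left out, and was lost with total-count scaling (0.0713) and without the low-count filter (0.0514). Single radiated libraries ended the Gclc call of week 4 and the Gclm calls too. Without sham replicate 2 the week 3 call of Slc7a11 was lost (2.75, adjusted p 0.054 in edgeR), and without sham replicate 3 that of Srxn1 in week 2 (1.61, 0.0775). Each Hmox1 call against sham skin was lost without sham replicate 1 or 3 (adjusted p 0.0746 to 0.181 in edgeR). Those of Gsta4 and Srxn1 in weeks 3 and 4 and of Nfe2l2 and Slc7a11 in week 4 held without any single library. With replicate numbers as a block, which join different mice here, Slc7a11 (1.81, adjusted p 0.0877 in edgeR) and Hmox1 (1.10, 0.0836) lost the week 4 call.

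Control skin, taken here as skin of mice radiated on the flank, differed from sham skin in 6 members in week 3. Srxn1 (0.87, adjusted p 0.0122 in edgeR) and Nfe2l2 (1.01, 0.0235) were higher, where 5.18% of genes were. Gclm (-0.89, 0.0172), Gpx2 (-3.20, 0.0264), Gclc (-0.83, 0.0447) and Slc7a11 (-1.47, 0.0466) were lower, where 6.19% of genes were. Nqo1, Hmox1, Txnrd1 and Gsta4 did not pass. Other markers differed there too, and their part was not tested. Of 8 hair follicle markers 5 were lower in control skin (sums of 20.9 to 645 against 855 to 9162 CPM in sham skin), of 6 sebaceous markers 4 (189 to 311 against 385 to 638 CPM) and of 5 proliferation markers 4 (122 to 294 against 354 to 699.8 CPM). Of 6 skeletal muscle markers 3 were higher (14861 to 30345 against 5996 to 12951 CPM). With single libraries left out, Gclc and Slc7a11 passed only without sham replicate 1 (adjusted p up to 0.144 and 0.16 in edgeR otherwise). Slc7a11 did not pass in 1 fit of all samples either (0.0589). Gpx2 passed only without sham replicate 1 or control replicate 4 (up to 0.072 otherwise). Its log2 fold change was -1.80 without sham replicate 2, 3.48-fold lower than sham skin where all libraries gave 9.17-fold. Gclm lost the call without sham replicate 2 or 3 or control replicate 3 (0.0505 to 0.0518), and Nfe2l2 without control replicate 1 or 3 (0.0543 and 0.0559). Srxn1 passed in all 7 such fits. With replicate numbers as a block 0 members passed. In weeks 1, 2 and 4, 0 members passed in edgeR, where 4.92%, 2.44% and 3.65% of all genes did, although 5 members in each, and 27.3%, 21.1% and 22% of all genes, were under 0.05 before adjustment. DESeq2 called Gclc, Gclm and Slc7a11 in week 1, Gclm, Gpx2, Srxn1 and Nfe2l2 in week 2 and Gclm, Gpx2 and Slc7a11 in week 4, beside 16.6%, 10.7% and 10.3% of all genes. Gsta4, Hmox1, Txnrd1 and Nqo1 passed in neither tool in these weeks. Of the marker lists, 5 of 6 skeletal muscle markers were higher in control than in sham skin in weeks 1 and 2, 4 of 5 adipocyte markers in week 1 (sums of 453 to 905 against 132 to 293 CPM), and all 8 hair follicle markers were lower in week 4. Without sham replicate 1, Gclc, Gclm, Gpx2 and Slc7a11 passed in weeks 1 and 4, and the last 3 in week 2, all lower in control skin.

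**Figure D4:**
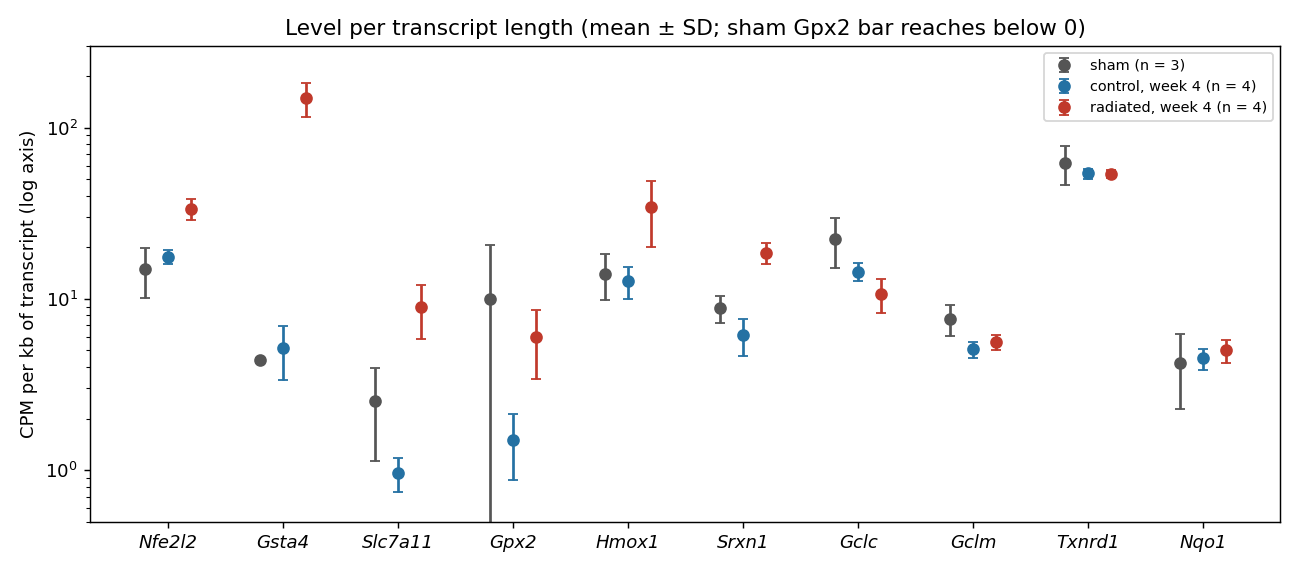
Mean level per kilobase of principal transcript (CPM per kb, log axis) of the 10 genes in sham skin and in control and radiated skin of week 4, with bars of 1 SD over 3, 4 and 4 libraries. Gsta4 moves from 4.37 in sham and 5.15 in control skin to 149 in radiated skin, above Txnrd1 at 53.8.

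Levels of different members were compared per kilobase of their principal transcript. In sham skin Txnrd1 was the most abundant member, at 62.1 CPM per kb (SD 16.1, n = 3), followed by Gclc at 22.5 (SD 7.34), and Gsta4 was near the lower end at 4.37 (SD 0.153). In radiated skin of week 4 Gsta4 was the highest at 149 CPM per kb (SD 33.0, n = 4), followed by Txnrd1 at 53.8 (SD 2.80), Hmox1 at 34.5 (SD 14.4) and Nfe2l2 at 33.5 (SD 4.76). Nqo1 was the lowest there at 5.01 CPM per kb (SD 0.766), with Gclm at 5.57 (SD 0.562) and Gpx2 at 5.99 (SD 2.61). Along the 9 group means of a gene, neighbouring groups rarely differed by more than the larger of their SDs. For Slc7a11 this held for 2 of 8 steps, from radiated week 4 down to sham skin and from control week 2 to control week 4. For Gsta4 it held for 1, from radiated week 4 down to radiated week 2, and for Srxn1 for 2, from radiated week 2 to radiated week 3 and from sham skin to control week 4. Gclc and Gclm had 1 such step each, and Nfe2l2, Gpx2, Hmox1, Txnrd1 and Nqo1 none.

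Genes with the most similar course over the 9 group means differed from member to member. For Gsta4 they were Slpi, a secreted protease inhibitor (Pearson r 0.993), Cxcr2, the neutrophil chemokine receptor (0.988), and S100a9, an alarmin subunit of neutrophils and stressed keratinocytes (0.985). For Hmox1 they were Cd80, a costimulatory molecule of antigen-presenting cells (0.985), Pik3r5 (0.984) and F10, coagulation factor X (0.982). For Slc7a11 they were Isyna1 (0.983), Il21r (0.983) and Cdipt (0.982), and for Gpx2 Fdxr (0.99), 1110008P14Rik (0.976) and Asl (0.976). Srxn1 was closest to Cd44, the hyaluronan receptor (0.97), Uhrf1bp1l (0.965) and Dio2 (0.964), and Nfe2l2 to Jak2 (0.967), Ehd4 (0.965) and Slc20a1 (0.964). The nearest genes were Prpf18, Pcid2 and Slc30a1 for Gclc (0.915 to 0.946), and Ccp110, Mtap and Krt86 for Gclm (0.903 to 0.909). They were Cdk12, Utp14a and Dot1l for Txnrd1 (0.935 to 0.943), and Tuba1a, Prrg1 and Cdk5rap2 for Nqo1 (0.916 to 0.934). These are descriptions over 9 points that share libraries and scaling, picked as the top 3 of 12533 genes whose mean reached 5 CPM.

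Another 64 genes of the pathway were described by role, and 62 were tested between radiated and control skin. In week 4, 20 were higher (32.3%) and 16 lower (25.8%), beside 24.2% of all genes in each direction, and in week 3, 14 were higher and 11 lower, beside 13.6% each. The week 3 total of 25 was 15 to 23 with 1 library left out, and lowest, at 15, without control replicate 1 or 4 of that week. Each of the 7 lists but that of heme and iron held genes called in either direction. Of the 10 regulators, 4 were higher and 4 lower in week 4. Bach1, a repressor of Hmox1, by 0.61 (adjusted p 0.000164 in edgeR) and Mafg, a small MAF partner, by 0.52 (0.00031) were higher. Mean Bach1 was 206 CPM in radiated and 251 CPM in control skin of week 3, and 190 and 125 CPM in week 4. For Mafg these means were 127 and 118 CPM, and then 102 and 71.0 CPM. The control means of both were thus lower in week 4 than in week 3, and the radiated means were not higher. Mafk, another small MAF, at -1.04 (4e-05) and Cul3, the scaffold of the ligase that ubiquitinates NRF2, at -0.46 (0.00854) were lower.

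**Figure D5:**
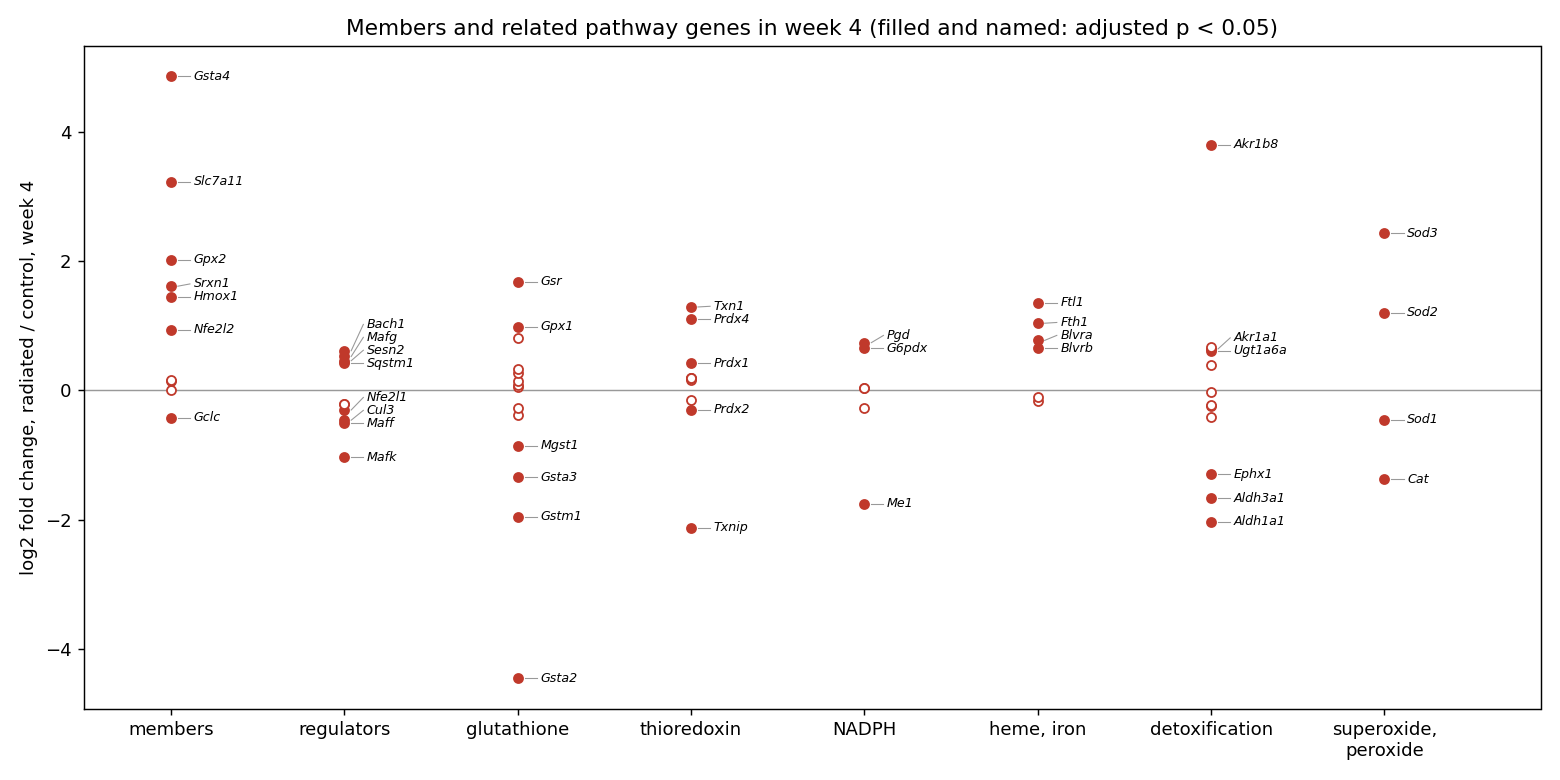
Log2 fold change of radiated over control skin in week 4 for the 10 members and 62 related genes by role; filled, named points have an adjusted p under 0.05. In the glutathione list Gsr lies at 1.68 and Gsta2 at -4.46.

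Glutathione genes were called in both directions. Gsr, which regenerates reduced glutathione, rose by 1.68 (SE 0.11), from 42.2 CPM (SD 1.56, n = 4) in control to 134.8 CPM (SD 19.2, n = 4) in radiated skin of week 4. Gpx1, the common cytosolic peroxidase, rose by 0.99 (SE 0.10). Gsta2, an alpha-class transferase like Gsta4, went the other way, from 13.9 CPM (SD 1.03, n = 4) to 0.616 CPM (SD 0.331, n = 4), a log2 fold change of -4.46 (SE 0.30). Gstm1 was lower too (-1.96, SE 0.18). Of 14 tested genes in this list 2 were higher and 4 lower, and Gstm3 and Ggt1 were below the filter. Gsta2 and the near-identical Gsta1 share sequence, so their counts are uncertain.

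In the thioredoxin list of 10, 3 were higher and 2 lower. Txn1, thioredoxin, rose by 1.29, Prdx4, the peroxiredoxin of the endoplasmic reticulum, by 1.10 and Prdx1 by 0.42. Txnip, which binds and inhibits thioredoxin, was lower than in control skin by 2.13 on the log2 scale. Mean Txnip was 240 CPM in radiated and 288 CPM in control skin of week 3, and 215 and 944 CPM in week 4. Among 6 genes of NADPH supply, Pgd (0.74) and G6pdx (0.65) of the pentose phosphate pathway rose and Me1, malic enzyme, fell (-1.76), with Idh1 at -0.27 (adjusted p 0.268 in edgeR). Of 6 heme and iron genes 4 were higher and none lower. The 4 were the ferritin chains Ftl1 (1.35) and Fth1 (1.04) and the biliverdin reductases Blvra (0.77) and Blvrb (0.65). Of these reductases, Blvra acts after heme oxygenase. Of 12 detoxification genes 3 were higher and 3 lower. Akr1b8, an aldo-keto reductase, rose by 3.80 (SE 0.22), from 2.30 CPM (SD 0.742, n = 4) to 31.6 CPM (SD 5.20, n = 4), and Akr1a1 by 0.64, while Aldh1a1 (-2.03) and Ephx1, epoxide hydrolase, (-1.30) fell. Of the 4 superoxide and peroxide enzymes, the extracellular Sod3 (2.43, SE 0.11) and the mitochondrial Sod2 (1.20, SE 0.13) rose, and catalase, Cat (-1.37, SE 0.13), and the cytosolic Sod1 (-0.45, SE 0.12) fell. Counts of Fth1, Ftl1, Txn1, Prdx1 and Gpx1 are less certain because these genes have processed pseudogenes. The Prdx1 call was lost without any 1 of 3 libraries, replicates 1 and 4 of radiated and replicate 3 of control week 4, at adjusted p up to 0.0547 in edgeR. Those of Sod1 and Blvrb were lost in a fit of all 35 samples together (adjusted p 0.0743 and 0.107).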

How the data were processed

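Per the submitters' processing notes, reads were trimmed with Trim Galore 0.6.7 and quantified with kallisto 0.46.2, and mm10 is the build named; the annotation used is not given in the sources used here. The authors deposited estimated counts per gene, unscaled; between 29.5% and 32.5% of values in a library were not whole, and all were rounded here. Depth speaks to counting error alone.

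Differences were tested with edgeR 4.0.16 (filterByExpr, TMM scaling, quasi-likelihood F test, Benjamini-Hochberg adjustment) in R 4.3.3, 2 groups at a time, with SE taken as the log2 fold change over the square root of F. F tests over weeks used the 32 radiated and control libraries or the 16 of a kind. The scripts were tested on simulated data. Radiated and control libraries of a week and number were taken as 1 mouse, from the number of mice and the shared labels, which do not state it: deviations of same-numbered libraries correlated at 0.07, 0.17, 0.05 and -0.02 on average in weeks 1 to 4. The fit without the mouse is the main one. Alternatives were total-count scaling, DESeq2 1.42.0, no filter, 1 fit of all samples, the block, and each library left out. In the tests over weeks, all libraries of 1 replicate number were left out together. Replicates are different mice within a group.

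Members and lists were chosen with earlier results of these data known. Every member is named in every comparison, with its value in radiated against control skin of weeks 3 and 4 and elsewhere with a value where it passed, or by a range or its name alone; pathway lists are given by counts and by the 4 genes of smallest adjusted p in week 4, and similar genes by the 3 highest correlations. Gene positions are from GENCODE M21 (GRCm38).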

Additional observations from a re-analysis of the deposited data

Results flagged for a closer look

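In 6 of 80 combinations of a gene and a group of 4, the highest or lowest library lay far from the nearest other relative to the group's range; chance alone would flag about 1 in 20. In radiated skin of week 1, replicate 2 was low for Gclm (13.9 CPM, next 21.2) and high for Gpx2 (12.8, next 3.96). In radiated skin of week 2, replicate 4 was high for Gsta4 (129 CPM, next 10.9), and the control library of the same mouse was also the highest of its group for Gsta4 (14.8, next 5.47). Control replicate 1 was high for Gpx2 in week 1 (5.12 CPM, next 2.19) and for Slc7a11 in week 4 (11.8, next 8.21).

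The radiated-control difference changed between weeks for 3 members by the F test of edgeR: Slc7a11 (adjusted p 0.00215), Srxn1 (0.0147) and Nfe2l2 (0.04). The difference was largest in week 3 for Slc7a11 and in week 4 for Srxn1 and Nfe2l2, when their control levels were at their lowest.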

How the results depend on the processing

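With the replicate block, which pairs 1 mouse's skin between radiated and control samples, 1, 3 and 6 members passed in weeks 2, 3 and 4, beside 3.7%, 21.1% and 42.7% of all genes. Against sham skin the block joins different mice: radiated skin then gave 0 members in week 1 and 1 in week 2, beside 0.691% and 2.76% of all genes, and control skin 0 in week 3, beside 2.66%. The calls of Gclc in radiated week 3 (adjusted p 0.103 in edgeR) and of Slc7a11 and Hmox1 in radiated week 4 were lost as well. Within radiated or control skin over weeks the block also joins different mice. It added Hmox1 in radiated skin (adjusted p 0.0355 in edgeR, beside 29.8% of all genes) and Gclc in control skin (0.0374, beside 22.7%). DESeq2 called more genes of all kinds: 2 members (Hmox1 and Srxn1) beside 4.23% of all genes between radiated and control skin of week 2, 2 beside 6.78% between radiated and sham skin of week 1, and 3, 4 and 3 beside 16.6%, 10.7% and 10.3% between control and sham skin of weeks 1, 2 and 4. Without the filter, radiated week 1 against sham gave 2 members beside 2.23% of all genes, and control weeks 1 and 2 gave 1 each beside 4.61% and 2.98%. A fit of all samples gave 2 and 6 members for radiated weeks 1 and 2 against sham, beside 6.18% and 16.4% of all genes. It gave 2, 3 and 1 for control weeks 1, 2 and 4, beside 5.65%, 7.87% and 3.01%. Total-count scaling gave 1 for control week 1, beside 4.64%.

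Leaving out single libraries gave 0 to 1 members between radiated and control skin in week 2, where 0 to 1.16% of all genes were called. Against sham skin it gave 0 to 2, 0 to 3 and 2 to 5 for radiated weeks 1, 2 and 3, where 0.00557 to 2.88%, 0.583 to 7.94% and 6.07 to 22% of all genes were called. For control weeks 1 to 4 it gave 0 to 4, 0 to 3, 1 to 6 and 0 to 4, beside 0 to 9.84%, 0 to 12.5%, 3.46 to 13.3% and 0 to 9.26%. Leaving out all libraries of 1 replicate number gave 1 to 3 members for the change of the difference over weeks. It gave 1 to 4 within radiated and 1 to 2 within control skin. Of all genes, 4.97 to 9.2%, 10.9 to 17.4% and 6.74 to 24.8% were called in these fits. With single libraries left out, 15 to 23 pathway genes were called between radiated and control skin of week 3.

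None of the differences below that changed sign had passed in the week concerned. In week 3, total-count scaling gave Nqo1 0.17, Gclc 0.22, Txnrd1 0.12 and Sod1 0.10, and the block gave Nfe2l2 -0.0078. With single libraries left out, week 3 values ran from -0.17 to 0.025 for Nqo1, -0.075 to 0.045 for Gclc, -0.23 to 0.021 for Txnrd1, -0.18 to 0.25 for Nfe2l2 and -0.31 to 0.011 for Sod1, and week 4 values of Txnrd1 from -0.024 to 0.073. Txnrd1 in week 4 was -0.0085 without the filter and -0.0047 in the fit of all samples.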
